A study of Mus musculus with 48 samples.

Results

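The semaphorins, Slits, netrins and ephrins and their plexin, neuropilin, Robo, Unc5 and Eph receptors were followed through 13 cell populations sorted from the mouse pancreas. A gene was a member when the array's annotation gave a probe that 1 symbol, beginning with Sema3 to Sema7, Plxna to Plxnd, Nrp1 or Nrp2, Slit1 to Slit3, Robo1 to Robo4, Epha, Ephb, Efna, Efnb, Ntn or Unc5. This rule took 70 of the 18194 genes that had a probe of their own, on 153 probes, and each gene was read from its probe with the highest mean. The members were 35 ligands (20 semaphorins, 8 ephrins, 3 Slits and 4 netrins), 32 receptors (13 Eph receptors, 11 plexins and neuropilins, 4 Robo and 4 Unc5 genes) and 3 genes that share only the name. These 3 are Unc50, Unc5cl and the antisense gene Plxna4os1.

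RNA of 48 samples, 3 to 5 per population, was measured on 1 array each, and all came from mice on a CD-1 background. The embryonic and progenitor populations were E11.5 Sox9 cells (4 arrays), E15.5 progenitors (3), E15.5 acinar cells (3), E15.5 endocrine progenitors (3) and E15.5 Neurog3-null cells (4). The islet populations were beta cells of E15.5 (4), E17.5 (3), P0 (3), P15 (4) and 8-12 wk (4) and alpha cells of P0 (4) and 8-12 wk (5), and the last population was 8-12 wk duct cells (4). In the labels 12 populations were wild type and the 13th was null for Neurog3, the basic helix-loop-helix factor required for islet cell formation, and the study's text writes the stages as E11, E15, E17 and P1.

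The gates set limits on what each population holds. E11.5 cells carried a Sox9-eGFP transgene and came from dorsal pancreas pooled over many embryos, and eGFP can persist in cells that no longer make Sox9. At E15.5 progenitors and acinar cells were CD133+ CD24+ and negative for a Neurog3-eGFP transgene, with low CD49f in progenitors and high CD49f in acinar cells. Endocrine progenitors were the transgene-positive cells of the low-CD49f gate. The Neurog3-null cells were eGFP-positive cells of embryos with both Neurog3 copies replaced by eGFP, another reporter allele, so genotype and allele cannot be told apart. Beta cells carried a GFP driven by the mouse insulin promoter, alpha cells a Venus driven by glucagon sequences, and the duct cells were CD133+ after removal of blood cells. Beta and alpha cells of the later ages came from males, and cells of several animals were pooled before sorting.

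These families were first known for steering growing axons, and the same genes act in blood vessels and in epithelia. Semaphorins signal through plexins, with the class 3 members secreted and relying on neuropilins as co-receptors; Slits bind Robo receptors; netrins bind Dcc and the Unc5 receptors. Ephrins are bound to the cell surface, the A class by a lipid anchor and the B class by a membrane span, and signal in both directions through the Eph receptor tyrosine kinases of a touching cell. In the pancreas, Slit and Robo genes, ephrin and Eph genes and netrins have been studied in the growth of the epithelium, the sorting of endocrine cells into islets, and insulin secretion.

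Values are log2 array signals. The median of an array lay between 6.58 and 6.875, and levels of different genes are not compared with each other, because each probe has its own brightness. Markers of the labelled cell type were present in the beta, acinar, duct and endocrine progenitor populations: the beta cell list averaged 13.01 to 13.46 in the 5 beta populations, the acinar list 13.34 in acinar cells, the duct list 12.23 in duct cells and the endocrine progenitor list 12.80 in endocrine progenitors. The alpha list did not set the alpha cells apart as a whole (10.65 at P0 and 10.53 at 8-12 wk, against 11.06 in endocrine progenitors), although Irx2 was 10.84 in 8-12 wk alpha and 7.38 in 8-12 wk beta cells. No list was read for the labels of E11.5 Sox9 cells, E15.5 progenitors and Neurog3-null cells, and E11.5 cells carried endocrine markers, the alpha list averaging 10.68 and the beta list 10.85 there. Neurog3 itself read 13.34 to 13.44 in endocrine progenitors and 11.43 to 11.98 in E15.5 progenitors, although the latter were sorted as transgene-negative. It read 10.29 to 10.97 in the cells labelled Neurog3-null. Where the probe lies relative to the replaced part is not known here, so this reading checks nothing about the allele.

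Markers of other cell types were not even across the populations. The mean of 12 endothelial markers was 8.91 in acinar cells, 9.78 in E17.5 beta cells, 10.53 in P0 beta cells and 9.22 in P0 alpha cells, where all 12 exceeded 100 on the linear scale, and 4.99 to 6.91 in the 9 other populations. The mean of 12 mesenchymal markers was 9.08, 11.13 and 11.73 in beta cells of E15.5, E17.5 and P0, 10.21 in P0 alpha cells, 7.80 in endocrine progenitors and 5.68 to 7.07 in the others. The mean of 17 macrophage markers was 11.15 in Neurog3-null cells, 11.34 in 8-12 wk beta cells, 11.47 in duct cells and 9.79 in P0 beta cells, against 5.24 to 5.95 in E11.5 cells, E15.5 progenitors, acinar cells, endocrine progenitors and 8-12 wk alpha cells. Several members, among them Nrp1, Nrp2, Robo4, Plxnd1, Ephb4 and Efnb2, are known to be expressed in endothelium, and mesenchyme expresses many class 3 semaphorins and Slits. Acinar markers split the 8-12 wk alpha cells, replicates 1 and 2 averaging 11.28 and 11.43 and the other 3 arrays 7.38 to 8.29, so results on these cells are also given without both arrays, an alternative chosen after seeing the data. P15 beta replicate 1 stood apart as well, at 12.42 in acinar and 9.09 in macrophage markers. The other P15 arrays averaged 9.92 to 10.46 and 6.75 to 7.75. Without this array, fetal to postnatal beta cells gave 3 members higher and 30 lower. In RNA of sorted pools, fewer cells of a type and less RNA per cell cannot be told apart.

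**Figure D1:**
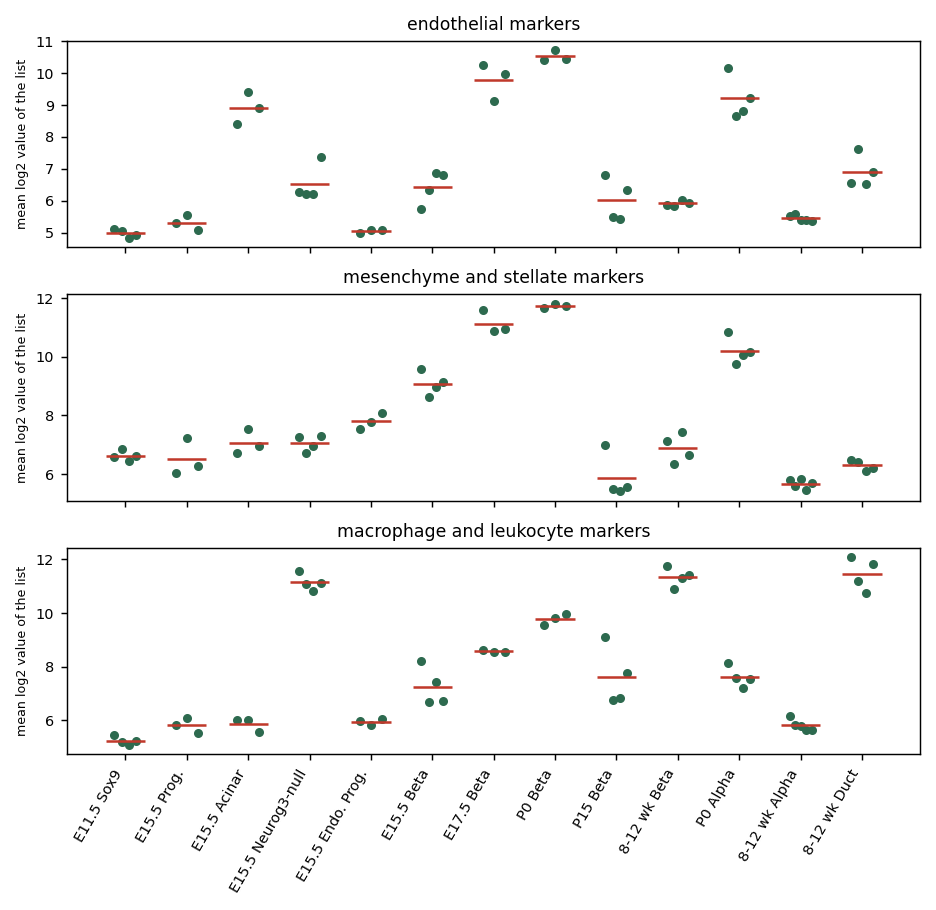
Mean log2 value of the endothelial (12 genes), mesenchymal (12) and macrophage (17) marker lists in each array (dots) with the population mean (red line), by population on the x axis. The endothelial and mesenchymal lists are high in E17.5 and P0 beta cells and in P0 alpha cells, and the macrophage list is high in Neurog3-null, 8-12 wk beta and duct cells.

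Of the 70 members, 62 exceeded 100 (6.64 on the log2 scale) in at least 1 array and were tested, and Epha10, Epha6, Epha8, Ephb1, Ntn3, Plxna4os1, Plxnb3 and Unc5d did not. The number of members with a mean above 100 ran from 26 in P15 beta cells (37.1%, against 60.3% of all genes) to 51 in P0 beta cells (72.9%, against 66.2%). In 8-12 wk alpha cells 31 members (44.3%, against 60.7% of all genes) were above 100 and in 8-12 wk beta cells 38 (54.3%, against 62.9%). The population with the highest mean was the duct cell for 14 of the 62 tested members (22.6%, against 13.1% of all genes tested) and the P0 beta cell for 9 (14.5%, against 6.37%). It was the E17.5 beta cell for another 9 (14.5%, against 2.74%), the 8-12 wk alpha cell for 7 (11.3%, against 11.2%) and the P15 or 8-12 wk beta cell for 0, where these held 6.27% and 5.05% of all genes tested.

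**Figure D2:**
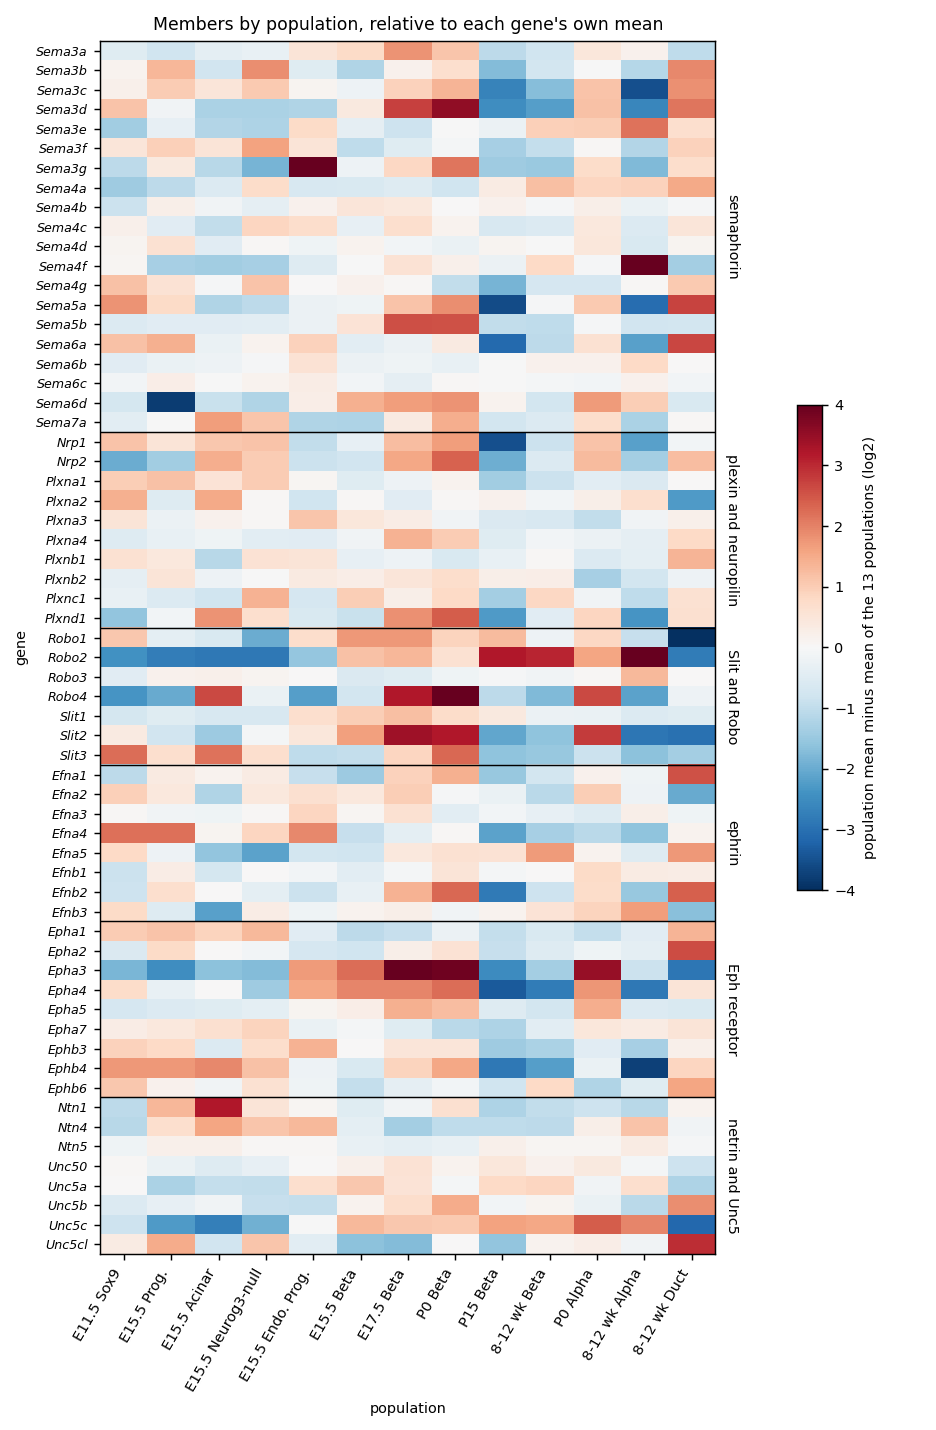
Mean of each of the 62 tested members (rows, by family) in the 13 populations (columns), relative to that gene's own mean over the populations, on a log2 colour scale that ends at 4 in each direction. Many Eph receptors, Slits and class 3 semaphorins are above their own mean in E17.5 and P0 beta cells and below it in the P15 and 8-12 wk beta cells.

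Differences were tested with limma on all 48 arrays and 14405 genes, and a member was called when its Benjamini-Hochberg adjusted p was under 0.05 and its log2 difference at least 1. The study's methods call the arrays of a population biological replicates and describe pools of several animals, and the labels do not tie a sample to its animals, so p-values measure the spread between such samples. A value at or below 6.64 is near the floor of the array, and the size of a difference that reaches it is not exact.

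Epha2, an Eph receptor found in many epithelia, was highest in the duct cells, at 9.21, 9.02, 8.71 and 8.13 (mean 8.77 ± 0.47, SD, n = 4). It measured 6.76, 6.61 and 7.47 in E15.5 progenitors and 6.08, 7.04 and 7.09 in P0 beta cells, the only other populations with a mean above 100. Arrays of E17.5 beta cells read 6.58, 6.19 and 6.39, of acinar cells 6.04, 6.27 and 6.26 and of Neurog3-null cells 5.90, 6.11, 6.17 and 6.06. Every duct array lay above every other array of the series. The other neighbours in the order of the means overlapped in their arrays, and next to each other in that order these populations did not differ beyond their spread. Arrays of P0 alpha cells read 6.12, 5.89, 6.02 and 5.89, of 8-12 wk alpha cells 6.07, 6.15, 5.38, 5.70 and 5.57 and of 8-12 wk beta cells 5.35, 5.70, 5.39 and 6.16. E11.5 cells gave 5.65, 6.02, 5.31 and 5.34, endocrine progenitors 5.18, 5.59 and 5.74, E15.5 beta cells 5.34, 5.28, 5.41 and 5.42 and P15 beta cells 5.47, 5.44, 4.67 and 5.35. The 10 populations other than duct cells, E15.5 progenitors and P0 beta cells thus had means under 100. Epha2 was higher in E15.5 progenitors than in E11.5 cells by 1.36 (SE 0.25, adjusted p = 3.65e-05), lower in endocrine progenitors than in E15.5 progenitors, -1.44 (SE 0.26, adjusted p = 2.36e-05), and higher in duct cells than in E15.5 progenitors, 1.83 (SE 0.25, adjusted p = 4.09e-08).

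The first set of comparisons followed the families as the pancreatic epithelium takes its separate fates. Between E15.5 progenitors and the endocrine progenitors sorted from the same gate, the semaphorins Sema3g and Sema6d, the Eph receptors Epha3 and Epha4 and the netrin receptors Unc5a and Unc5c were higher in endocrine progenitors. The Eph receptors Ephb4, Epha1 and Epha2, the ephrins Efna1 and Efnb2, Sema3b and Nrp1 were lower. Of the 70 members 12 were called higher and 14 lower, where 10.7% of all genes tested were called higher and 11.8% lower. The median difference of the tested members was -0.16, against -0.03 over all genes. The mesenchymal list moved with this comparison, from a mean of 6.51 to 7.80 with 6 of its 12 markers called higher and 1 lower. The endothelial list averaged 5.31 and 5.06. Acinar markers were lower in 3 of 9 cases (list means 11.74 and 9.71). Duct markers were lower in 4 of 7 and higher in 1 (10.98 and 9.75). Of the endocrine lists, 4 of 4 alpha markers were higher (5.85 and 11.06), and 3 of 6 beta markers were higher and 1 lower (8.96 and 11.27). Endocrine progenitor replicate 3 averaged 11.04 in acinar markers, beside 8.69 and 9.39 in replicates 1 and 2. The part of these cells in the results was not tested.

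**Figure D3:**
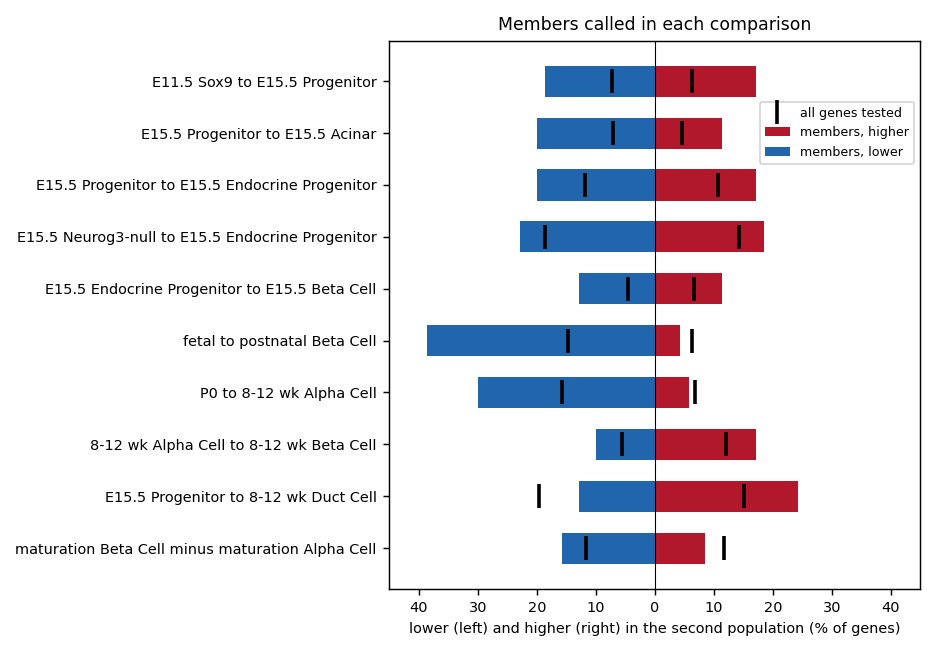
Share of the 70 members called lower (blue, left) and higher (red, right) in the second population of each comparison, with black ticks at the share of all genes tested. The longest bar is the 27 of 70 members lower in postnatal than in fetal beta cells, where the tick stands at 14.8%.

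Among the ligands, Sema3g, a secreted class 3 semaphorin that binds Nrp2, measured 6.80, 6.90 and 7.35 in the 3 progenitor arrays and 10.66, 10.69 and 10.76 in the 3 endocrine progenitor arrays. Sema6d, a membrane-spanning semaphorin of plexin A receptors, measured 5.76, 6.09 and 5.32 in progenitors and 9.84, 9.94 and 9.59 in endocrine progenitors. For both genes the arrays of the populations stood far apart, with differences of 3.68 (SE 0.38, adjusted p = 3.89e-10) and 4.06 (SE 0.35, adjusted p = 2.15e-12), or 12.8-fold and 16.7-fold. Sema3a, the classical repellent read by Nrp1 with plexin A, measured 4.997, 5.35 and 4.57 in progenitors and 6.05, 6.18 and 6.58 in endocrine progenitors. Sema3e, which binds Plxnd1 without a neuropilin, measured 5.23, 5.32 and 4.98 and 5.88, 6.48 and 6.53. Both of these rose, by 1.30 and 1.12, yet stayed near or under the floor. Sema4c, a ligand of Plxnb2, measured 8.92, 8.70 and 8.90 in progenitors and 10.02, 9.99 and 9.91 in endocrine progenitors, a rise of 1.13.

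The semaphorins that fell included the secreted Sema3b, at 9.29, 9.11 and 9.44 in progenitors and 7.21, 7.39 and 7.83 in endocrine progenitors, a difference of -1.81 (SE 0.32, adjusted p = 1.91e-05). Sema7a, a lipid-anchored ligand of Plxnc1 and integrins, measured 6.80, 7.29 and 6.03 in progenitors and 5.36, 5.57 and 5.62 in endocrine progenitors. Sema3d, another secreted member, measured 5.60, 5.57 and 6.22 and 4.68, 4.84 and 4.63. Sema7a and Sema3d were thus near or under the floor on both sides, with differences of -1.19 and -1.08. Sema5a, a membrane semaphorin with thrombospondin repeats, was well above it at 9.24, 9.05 and 9.62 in progenitors and 8.04, 8.14 and 8.69 in endocrine progenitors, a difference of -1.01. In all, 5 of the 20 semaphorins rose, 4 fell and 11 did not pass the test.

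Of the receptors for these ligands, Plxna3, a plexin that works with Nrp2 and class 3 semaphorins, measured 8.09, 8.08 and 8.05 in progenitors and 9.37, 9.38 and 9.50 in endocrine progenitors, a rise of 1.34 (SE 0.19, adjusted p = 2.59e-07). Nrp1, co-receptor of Sema3a and of vascular endothelial growth factor, went the other way, from 11.67, 11.76 and 11.13 to 9.59, 9.996 and 10.48, a difference of -1.50. Plxna1 fell as well, from 10.40, 10.42 and 10.76 to 9.24, 9.37 and 9.65, a difference of -1.11. Nrp2, the receptor side of Sema3g, measured 7.001, 7.83 and 6.50 in progenitors and 7.39, 7.51 and 7.96 in endocrine progenitors, so the arrays overlapped. Its difference of 0.51 (SE 0.46, adjusted p = 0.44) did not pass. The Sema3e receptor Plxnd1, with means of 7.85 ± 0.40 in progenitors and 7.38 ± 0.26 in endocrine progenitors, was not called either.

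Among the Eph receptors the contrast was widest for Epha3, a receptor of ephrin A ligands, which measured 3.45, 5.48 and 2.84 in progenitors and 8.21, 8.32 and 7.80 in endocrine progenitors. The progenitor arrays were spread out under the floor, so the difference of 4.19 (SE 0.65, adjusted p = 1.81e-06) has no exact size. Epha4, which binds ephrins of both classes, measured 6.50, 6.69 and 7.09 in progenitors and 8.49, 8.83 and 8.53 in endocrine progenitors, a difference of 1.86 (SE 0.42, adjusted p = 0.000407). Ephb4, the receptor of Efnb2, measured 9.80, 9.81 and 9.63 in progenitors and 7.51, 7.66 and 8.32 in endocrine progenitors, a difference of -1.92 (SE 0.37, adjusted p = 6.46e-05). Its ligand Efnb2 read 8.57, 8.39 and 9.44 in progenitors and 7.05, 7.09 and 7.67 in endocrine progenitors, so both sides of this pair were lower. The Efnb2 difference was -1.53 (SE 0.47, adjusted p = 0.00921), and without progenitor replicate 3, its highest array, it was -1.21 with adjusted p = 0.0751. Epha1 measured 8.20, 8.14 and 8.74 in progenitors and 6.52, 6.60 and 7.18 in endocrine progenitors, a difference of -1.59 (SE 0.29, adjusted p = 2.43e-05). The mean of all Epha1 probes gave -0.83, below the threshold of size. Efna1, a short-range ligand of Epha2 among other A receptors, measured 9.33, 9.13 and 9.65 in progenitors and 7.91, 8.12 and 8.29 in endocrine progenitors, a difference of -1.27. Together with Epha2, an A ligand and an A receptor were therefore both lower. Efna5, a ligand of Epha3 and Epha4, measured 8.49, 8.26 and 8.37 in progenitors and 7.94, 7.83 and 7.71 in endocrine progenitors, and its difference of -0.55 was under the threshold of size.

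The netrin, Unc5, Slit and Robo genes split between both directions. Unc5a measured 6.61, 6.57 and 6.39 in progenitors and 8.57, 8.29 and 8.50 in endocrine progenitors, and Unc5c 5.93, 6.26 and 5.45 and 8.28, 8.22 and 7.91. Both netrin receptors thus went from the floor to above it in every array, with differences of 1.93 (SE 0.24, adjusted p = 2e-08) and 2.26 (SE 0.26, adjusted p = 3.24e-09). Ntn1, the founding netrin, measured 7.33, 7.78 and 7.41 in progenitors and 5.57, 6.20 and 6.99 in endocrine progenitors, a difference of -1.25 and so opposite in direction to these receptors. Unc5cl, a death-domain protein that shares the family's name and no known netrin binding, went from 7.78, 7.52 and 8.19 to 5.61, 5.95 and 6.14, a difference of -1.93 (SE 0.33, adjusted p = 8.69e-06). Slit1 measured 6.69, 6.72 and 6.24 in progenitors and 7.88, 7.58 and 7.71 in endocrine progenitors, and Slit2 8.18, 8.51 and 6.87 and 8.83, 9.34 and 8.98. Slit3, from 8.01, 8.58 and 7.26 to 5.84, 6.30 and 6.63, fell while the other Slits rose, with differences of 1.18 for Slit1, 1.20 for Slit2 and -1.69 (SE 0.30, adjusted p = 1.87e-05) for Slit3. Under the methods' t-test the Slit3 call was lost, at adjusted p = 0.0529. On the receptor side, Robo1 measured 10.01, 9.79 and 9.70 in progenitors and 10.79, 11.07 and 10.84 in endocrine progenitors, a difference of 1.07 (SE 0.46, adjusted p = 0.0672). Robo2 measured 3.45, 3.34 and 3.59 and 5.36, 5.14 and 3.56, under the floor in each array.

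**Figure D4:**
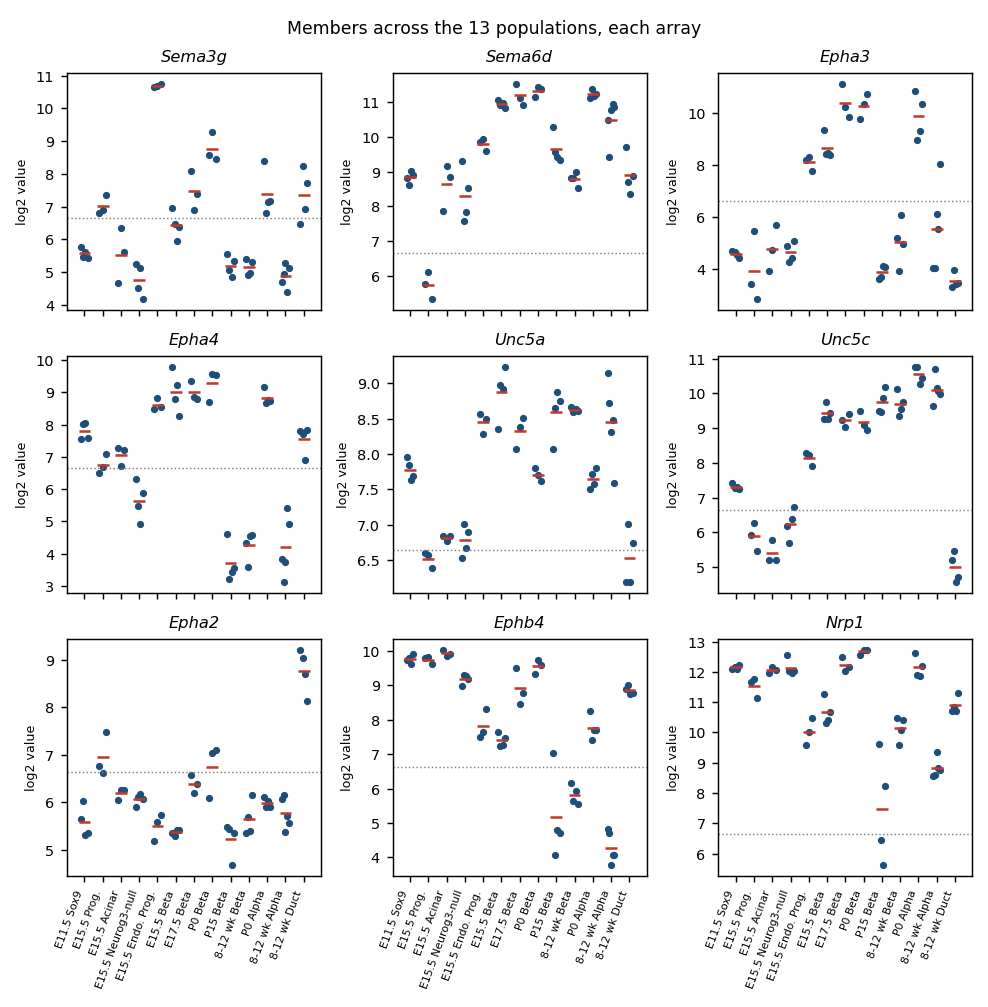
Log2 value in each array (dots) and population mean (red line) of Sema3g, Sema6d, Epha3, Epha4, Unc5a, Unc5c, Epha2, Ephb4 and Nrp1 across the 13 populations, with the level of 100 on the linear scale as a dotted line. Sema3g stands highest in the 3 endocrine progenitor arrays (10.66 to 10.76), and Epha2 in the 4 duct arrays.

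The same 3 endocrine progenitor arrays were compared with Neurog3-null cells, so this comparison is not independent of the one before. Markers of other cells separated these populations too: 16 of 17 macrophage markers, 7 of 9 acinar markers (list means 12.34 and 9.71) and 6 of 12 endothelial markers were lower in endocrine progenitors, and the part of these cells in the results was not tested. Of the members, 13 were called higher in endocrine progenitors and 16 lower, where 14.2% of all genes tested were called higher and 18.7% lower. The median difference of the tested members was -0.03, against -0.10 over all genes. Sema3g, at 4.77 ± 0.51 in Neurog3-null cells (SD, n = 4) and 10.70 ± 0.06 in endocrine progenitors (n = 3), differed most among the members, by 5.93 (SE 0.36, adjusted p = 6.59e-17) or 61-fold. Epha3 was 4.68 ± 0.37 in Neurog3-null cells and higher in endocrine progenitors by 3.43 (SE 0.61, adjusted p = 9.84e-06), and Epha4 was 5.64 ± 0.60 and higher by 2.98 (SE 0.39, adjusted p = 3.23e-08). Sema3e was higher by 2.01 (SE 0.32, adjusted p = 1.86e-06). Unc5c was higher by 1.90 (SE 0.24, adjusted p = 1.83e-08). Robo1, a Slit receptor, was 8.21 ± 0.90 in Neurog3-null and 10.90 ± 0.15 in endocrine progenitor cells, a difference of 2.69 (SE 0.43, adjusted p = 1.64e-06). One Neurog3-null array, at 6.87, stood below the other 3, which read 8.59 to 8.71. Sema6d, at 8.31 ± 0.78 in Neurog3-null cells, differed by 1.48, less than its 4.06 against E15.5 progenitors, although the 2 differences were not tested against each other.

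Among the members lower in endocrine progenitors than in Neurog3-null cells were the secreted Sema3b, with a difference of -2.35 (SE 0.30, adjusted p = 2.5e-08), and Sema7a, with -2.30 (SE 0.30, adjusted p = 2.91e-08). The plexin Plxnc1, receptor of Sema7a, was 7.70 ± 0.74 in Neurog3-null cells and 5.62 ± 0.13 in endocrine progenitors, a difference of -2.08 (SE 0.40, adjusted p = 3.03e-05). Both sides of that pair are also known in macrophages and monocytes. The neuropilins Nrp1 and Nrp2 differed by -2.12 (SE 0.44, adjusted p = 0.000104) and -1.89 (SE 0.43, adjusted p = 0.000339), and Robo4, a Robo largely of endothelium, by -1.94 (SE 0.43, adjusted p = 0.000225). Epha1 differed by -1.75, beside -1.59 against E15.5 progenitors, and Ephb4 by -1.35.

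The start regions of the members called higher in endocrine progenitors against both populations are shown because Neurog3 and the related factors that follow it bind the E-box, a short motif written CANNTG. These members were Epha3, Epha4, Plxna3, Sema3e, Sema3g, Sema6d, Slit1, Unc5a and Unc5c, a list that rests on the shared arrays. RefSeq promoters on build GRCm38.p6 were found for 8 of the 9, and 3 of these held an E-box in the 250 bases before a start (Sema3e, Sema3g and Sema6d), or 4 of 9 starts. Of all 32851 starts listed there, 66.2% held one. CANNTG is its own reverse complement, so 1 strand was read for both, and a match describes letters and not binding. The promoters of 3 members that differed widely are given 5′ to 3′ with E-boxes in capitals, to show 1 with a pair of E-boxes and 2 with none. Sema3g lies on the plus strand at chr14:31217623-31217872, with E-boxes beginning 247 and 210 bases before the start, Epha3 on the minus strand at chr16:63864176-63864425, and Unc5a on the plus strand at chr13:54949161-54949410.
Sema3g: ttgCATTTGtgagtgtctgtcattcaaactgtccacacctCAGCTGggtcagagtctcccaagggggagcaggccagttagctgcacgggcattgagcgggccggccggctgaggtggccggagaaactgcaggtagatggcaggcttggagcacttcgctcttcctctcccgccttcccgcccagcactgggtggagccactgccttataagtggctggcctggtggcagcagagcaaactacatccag
Epha3: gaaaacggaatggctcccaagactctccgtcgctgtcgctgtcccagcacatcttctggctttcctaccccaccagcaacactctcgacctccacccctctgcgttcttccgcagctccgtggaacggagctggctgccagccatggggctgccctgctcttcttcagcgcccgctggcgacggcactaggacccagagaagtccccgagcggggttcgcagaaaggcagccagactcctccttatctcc
Unc5a: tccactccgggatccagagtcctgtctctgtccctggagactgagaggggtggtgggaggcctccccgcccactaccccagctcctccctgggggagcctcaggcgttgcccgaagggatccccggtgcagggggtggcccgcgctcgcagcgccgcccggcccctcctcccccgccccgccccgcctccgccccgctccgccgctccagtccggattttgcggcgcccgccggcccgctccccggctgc

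From endocrine progenitors to E15.5 beta cells, 8 members were higher and 9 lower, where 6.69% of all genes tested were called higher and 4.57% lower. The median difference of the tested members was -0.01, and that of all genes 0.01. Sema3g dropped back, from 10.70 ± 0.06 (n = 3) to 6.44 ± 0.41 (SD, n = 4), a difference of -4.27 (SE 0.36, adjusted p = 7.19e-12). The lipid-anchored ephrin Efna4 fell from 7.96 ± 0.23 to 5.13 ± 0.10, a difference of -2.83 (SE 0.26, adjusted p = 9.9e-11). Ntn4, a netrin of basement membranes, fell by 1.71 (SE 0.22, adjusted p = 1.26e-07), Sema3f fell by 1.53 (SE 0.18, adjusted p = 2.1e-08), Ephb3 fell by 1.37 (SE 0.18, adjusted p = 3.32e-07) and Sema6a fell by 1.35 (SE 0.31, adjusted p = 0.00116). Robo2 was the member with the largest rise, from 4.69 ± 0.98 to 7.40 ± 0.69, or 2.71 (SE 0.52, adjusted p = 0.000139). Unc5c rose further, to 9.43 ± 0.24 and by 1.29 (SE 0.24, adjusted p = 8.38e-05). The plexin Plxnc1 rose by 1.65 (SE 0.40, adjusted p = 0.002) and Sema3d by 1.61 (SE 0.34, adjusted p = 0.000526). Both Sema3d means, 4.72 and 6.33, were under the floor.

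Slit2 and Robo4 each lost the call when 1 array was left out. Slit2 was higher by 1.21 (SE 0.37, adjusted p = 0.0144), and without E15.5 beta replicate 1 by 0.96 with adjusted p = 0.0725. Robo4 was higher by 1.46 (SE 0.43, adjusted p = 0.0116), and without E15.5 beta replicate 4 by 1.24 with adjusted p = 0.0735. Markers of other cells moved with them: 8 of 12 endothelial, 6 of 12 mesenchymal and 9 of 17 macrophage markers were called higher in E15.5 beta cells, and their part was not tested. Sema6d, a rise of 1.15, and Unc5b, a rise of 1.12, complete the 8 members. The means of Robo4 (4.44 and 5.90) and Unc5b (5.49 and 6.61) were under the floor in both populations.

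Acinar cells, compared with E15.5 progenitors, had 8 members higher and 14 lower, where 4.63% of all genes tested were called higher and 7.06% lower. The median difference of the tested members was -0.24, against -0.02 over all genes. Ephrins made up 5 of the members that fell, out of the 8 in the family. Efna4 was 8.25 ± 0.28 in progenitors and 6.17 ± 0.19 in acinar cells (SD, n = 3 each), a difference of -2.08 (SE 0.28, adjusted p = 4.51e-07), Efnb3 fell by 1.67 (SE 0.30, adjusted p = 5.9e-05), and the differences of Efna2, Efna5 and Efnb1 were -1.64, -1.36 and -1.01. Sema3b fell by 2.07 (SE 0.32, adjusted p = 5.98e-06), Sema5a fell by 1.97 (SE 0.37, adjusted p = 9.65e-05) and Sema6a fell by 1.67 (SE 0.33, adjusted p = 0.000212). Unc5cl fell by 2.27 (SE 0.33, adjusted p = 1.55e-06). Plxnb1, the receptor of Sema4d, fell by 1.54 beside a difference of -1.04 for Sema4d.

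The members higher in acinar cells were led by Robo4, from 4.63 ± 0.32 in progenitors to 9.29 ± 0.79 in acinar cells, a difference of 4.66 (SE 0.46, adjusted p = 6.02e-10). Sema6d was higher by 2.90 (SE 0.35, adjusted p = 3.72e-08), Nrp2 by 2.82 (SE 0.46, adjusted p = 1.37e-05), Plxna2 by 2.03 (SE 0.23, adjusted p = 1.71e-08), Plxnd1 by 1.93 (SE 0.33, adjusted p = 2.77e-05) and Ntn1 by 1.87 (SE 0.34, adjusted p = 7.73e-05). Under the methods' t-test Plxna2 and Ntn1 did not pass, at adjusted p = 0.0507 and 0.0904. Endothelial markers moved with these genes, 11 of 12 being called higher in acinar cells, and their list mean was 5.31 in progenitors and 8.91 in acinar cells. The part of endothelial cells in the rise of Robo4, Nrp2, Plxnd1 and the others was not tested. Mesenchymal markers were higher in 4 of 12 cases and lower in 1, and acinar markers higher in 3 of 9. Lower in acinar cells were 4 of 5 endocrine progenitor markers (list means 9.33 and 6.81), 4 of 7 duct markers (10.98 and 9.77) and 2 of 6 beta markers. The part of these cells in the increases and decreases was not tested. Slit3 rose by 1.48 and Sema7a by 1.69.

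At the step before these fates, E15.5 progenitors differed from E11.5 Sox9 cells in 12 members that were higher and 13 that were lower, where 6.25% of all genes tested were called higher and 7.3% lower. The median difference of the tested members was 0.12, against -0.01 over all genes. Markers of other cells moved with this step: 4 of 4 alpha markers (list means 10.68 and 5.85) and 3 of 6 beta markers (10.85 and 8.96) were lower in E15.5 progenitors, and 6 of 9 acinar (8.46 and 11.74) and 5 of 7 duct markers were higher. The part of these cells in the results was not tested. Of the 4 netrins 2 rose: Ntn1 went from 5.14 ± 0.21 (SD, n = 4) to 7.51 ± 0.24 (n = 3), a difference of 2.37 (SE 0.32, adjusted p = 2.52e-07), and Ntn4 rose by 1.78 (SE 0.22, adjusted p = 3.38e-08). The netrin receptors Unc5a and Unc5c fell, the first by 1.26 on the log2 scale from 7.78 ± 0.15 and the second with a difference of -1.43 (SE 0.24, adjusted p = 1.29e-05). Of the ephrins, Efnb2 rose by 1.51 (SE 0.44, adjusted p = 0.00955) and Efna1 and Efnb1 by 1.39 and 1.15, while Efnb3 and Efna5 fell by 1.27 and 1.00. Without E15.5 progenitor replicate 3, Efnb2 gave 1.19 with adjusted p = 0.0872. Plxnd1 rose by 1.46 (SE 0.31, adjusted p = 0.000389) and Sema3g by 1.45 (SE 0.36, adjusted p = 0.00219).

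The largest decrease from E11.5 to E15.5 was that of Sema6d, from 8.83 ± 0.17 to 5.73 ± 0.39, a difference of -3.10 (SE 0.33, adjusted p = 6.89e-10). Plxna2, a plexin that reads Sema6a, fell by 1.93 (SE 0.22, adjusted p = 4.49e-09) from a level of 10.42 ± 0.07. Slit and Robo genes fell together in 3 of 7 cases: Slit3 fell by 1.56 (SE 0.28, adjusted p = 4.3e-05), Robo1 fell by 1.45 (SE 0.43, adjusted p = 0.0102) and Slit2 with a difference of -1.13. Sema4f fell by 1.38 (SE 0.32, adjusted p = 0.000989), to a level under the floor. With the mean of all probes of a gene in place of the brightest probe, 14 members were called in this comparison in place of 25, and Robo1 (-0.97), Sema4f (-0.87) and Efnb2 (0.97) were among those under the threshold of size.

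Adult duct cells stood at the other end of the epithelial lineage, with 17 members higher than in E15.5 progenitors and 9 lower, where 15.1% of all genes tested were called higher and 19.6% lower. The median difference of the tested members was 0.01, against -0.16 over all genes. Of the 20 semaphorins 6 were higher and 14 were not called: Sema6d rose to 8.91 ± 0.58 (SD, n = 4) by 3.18 (SE 0.33, adjusted p = 7.84e-11), Sema4a by 2.58 (SE 0.27, adjusted p = 1.6e-10) and Sema3d by 2.28 (SE 0.34, adjusted p = 4.29e-07). Sema5a, Sema6a and Sema3e were the other semaphorins that rose, with differences of 1.93, 1.25 and 1.02. Nrp2 rose by 2.61 (SE 0.43, adjusted p = 2.57e-06), although its duct arrays ran from 8.69 to 11.31. Efna1 rose by 2.21 (SE 0.18, adjusted p = 2.66e-13) and its receptor Epha2 by 1.83. The netrin receptor Unc5b rose by 2.18 (SE 0.25, adjusted p = 9.37e-10).

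The decreases in duct cells lay in other branches of the families. Robo1 fell from 9.84 ± 0.16 in progenitors to 6.12 ± 0.74 in duct cells, a difference of -3.72 (SE 0.43, adjusted p = 1.53e-09). Slit2 fell by 2.24 (SE 0.37, adjusted p = 2.03e-06) and Slit3 fell by 2.04 (SE 0.28, adjusted p = 8.95e-08), so that a Slit receptor and 2 of the 3 Slits were lower. Efna2 fell by 2.44 (SE 0.23, adjusted p = 6.85e-12), Efna4 fell by 2.06 (SE 0.26, adjusted p = 1.62e-08) and Plxna2 fell by 1.77 (SE 0.22, adjusted p = 7.69e-09). Macrophage markers were called higher in duct cells in 16 of 17 cases, endothelial markers in 7 of 12 and duct markers in 3 of 7. Endocrine progenitor markers were lower in 5 of 5 cases (list means 9.33 and 5.06) and Schwann cell and neural crest markers in 2 of 5. Mesenchymal markers were higher in 2 of 12 cases and lower in 3, and acinar markers higher in 2 of 9 and lower in 3. The part of all these cells in the results was not tested.

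The second set of comparisons followed islet cells as they mature. Between fetal beta cells (E15.5, E17.5 and P0, 10 arrays) and postnatal beta cells (P15 and 8-12 wk, 8 arrays), 27 members were lower in the postnatal cells and 3 higher, where 14.8% of all genes tested were called lower and 6.37% higher. Under a filter of at least 3 arrays above 100, 25 were lower and 3 higher. The median difference was -0.87 over the tested members and -0.05 over all genes. Epha3, Epha4, Slit2, Sema3d and Robo4 fell most, and Robo2, Sema4a and Efna5 rose. For 13 of the 30 called members no fetal array overlapped a postnatal one, where 8.48% of all genes tested, or 40.1% of those called, were called without overlap. Markers of other cells moved the same way, 11 of 12 endothelial and 12 of 12 mesenchymal markers being lower in postnatal cells. Also lower were 3 of 5 Schwann cell and neural crest markers, 3 of 4 alpha and 3 of 5 endocrine progenitor markers. Of the Schwann cell and neural crest markers 1 was higher. Duct markers were lower in 2 of 7 cases and higher in 1. In the other direction, 6 of 17 macrophage and 5 of 9 acinar markers were higher. The part of all these cells was not tested. E15.5 and P15 beta cells differed little in the endothelial list (6.44 and 6.02) and more in the mesenchymal list (9.08 and 5.87), so values are also given for E15.5 against P15 alone, where 22 members were lower and 2 higher, beside 12.8% and 5.89% of all genes tested. Of the 27 members lower between the classes, 19 were also called from E15.5 to P15 and all 27 had the same direction. The 8 that were not called there were Slit3, Robo4, Plxna4, Efna1, Efna2 (-0.68), Epha5 (-0.79), Ntn1 (-0.75) and Sema3b (-0.54).

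Semaphorins were 10 of the 27 members that fell. In the fetal arrays the lowest, median and highest values of Sema3d were 5.97, 8.40 and 9.83, and in the postnatal arrays 3.21, 3.50 and 4.06, a difference of -4.58 (SE 0.22, adjusted p = 1.88e-20). Sema5b, a membrane semaphorin with thrombospondin repeats, ran 6.51, 9.08 and 9.69 in fetal and 5.57, 5.78 and 5.90 in postnatal arrays, a difference of -2.89 (SE 0.13, adjusted p = 2.09e-21). Neither gene's classes overlapped, and from E15.5 to P15 alone the differences were -2.88 and -1.53. Sema3c, which acts through both neuropilins, ran 8.33, 9.17 and 10.26 in fetal and 5.05, 6.50 and 7.68 in postnatal arrays. Sema5a ran 7.83, 9.34 and 10.55 and 4.57, 6.92 and 8.85, the 8-12 wk arrays reaching into the fetal range. Their class differences were -2.89 and -2.76, and from E15.5 to P15 -2.49 and -3.42. Sema3g ran 5.95, 7.17 and 9.28 in fetal and 4.85, 5.18 and 5.54 in postnatal arrays, and Sema3a 6.28, 6.64 and 8.46 and 4.46, 4.81 and 5.19. These secreted genes ended under the floor in every postnatal array, with class differences of -2.39 and -2.15. Sema6a ran 6.86, 7.51 and 8.43 and 3.80, 5.83 and 7.05, a difference of -1.99, and Sema6d 10.84, 11.09 and 11.54 and 8.52, 9.15 and 10.29, a difference of -1.94. Sema6d stayed well above the floor in every postnatal array. Between E15.5 and P15 alone Sema3g gave -1.24, Sema3a -1.80, Sema6a -2.71 and Sema6d -1.29.

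Sema3b ran 6.34, 7.92 and 8.85 in fetal and 5.84, 6.73 and 7.77 in postnatal arrays, and Sema4g 8.76, 9.84 and 10.49 and 7.99, 8.40 and 9.61, both with overlap and with differences of -1.13 and -1.02. Sema4g gave -2.03 from E15.5 to P15 alone. Sema4a, known also from immune cells, was the semaphorin that rose, from 8.43, 8.85 and 9.14 in fetal to 8.89, 10.47 and 10.89 in postnatal arrays, a difference of 1.41 (SE 0.17, adjusted p = 3.58e-09). From E15.5 to P15 alone Sema4a gave 0.94 with adjusted p = 0.0024, under the threshold of size. The other 9 semaphorins were not called.

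Of the plexins and neuropilins, Nrp1 ran 10.31, 12.09 and 12.74 in fetal and 5.62, 9.59 and 10.49 in postnatal arrays, and Nrp2 7.63, 9.83 and 10.91 and 5.57, 7.68 and 8.18. The arrays overlapped for both, and the differences were -3.05 (SE 0.28, adjusted p = 3.44e-12) and -2.29 (SE 0.27, adjusted p = 2.32e-09). Nrp1 gave -3.19 and Nrp2 -1.17 from E15.5 to P15 alone. Plxnd1, the Sema3e receptor of endothelium, ran 6.77, 9.46 and 10.77 and 5.40, 6.52 and 7.92, a difference of -2.47, and Plxna4 ran 4.75, 6.14 and 7.10 and 4.73, 4.98 and 5.34, a difference of -1.06. From E15.5 to P15 these gave -1.35 and -0.33. Plxna4 exceeded 100 in only 2 arrays of the series, and its only population mean above 100 was that of E17.5 beta cells. It thus entered the test through the class where it read high, and its call is no support.

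Of the 9 Eph receptors tested 5 fell and 4 were not called. Epha3 ran 8.39, 9.82 and 11.15 in fetal and 3.62, 4.12 and 6.09 in postnatal arrays, a difference of -5.33 (SE 0.38, adjusted p = 4.95e-15), and Epha4 ran 8.26, 9.04 and 9.80 and 3.21, 3.96 and 4.60, a difference of -5.12 (SE 0.24, adjusted p = 2.3e-20). Both went from clearly above to under the floor with no overlap, and from E15.5 to P15 alone they gave -4.77 and -5.32. Ephb4 ran 7.24, 8.61 and 9.73 and 4.07, 5.60 and 7.04, a difference of -3.13 (SE 0.22, adjusted p = 2.2e-15). Ephb3 ran 7.23, 7.75 and 8.00 and 5.80, 5.97 and 6.28, and Epha5 4.84, 5.74 and 6.72 and 3.88, 4.06 and 4.86. For Ephb3 the classes did not overlap and for Epha5, at or below the floor in nearly all arrays, they did. The differences were -1.69 and -1.60. Epha5 exceeded 100 in only 2 arrays of the series and in the mean of no population, so its call is no support. Among the ephrins Efnb2, the ligand of Ephb4, ran 7.35, 9.37 and 10.92 and 4.26, 6.79 and 7.51, a difference of -2.95. Efna1 ran 7.19, 9.85 and 10.61 in fetal and 7.22, 8.05 and 8.45 in postnatal arrays, a difference of -1.43. The E15.5 arrays of Efna1 lay with the postnatal ones, and from E15.5 to P15 alone its difference was -0.08. Efna4 ran 5.03, 5.50 and 6.33 and 3.63, 4.15 and 5.13, and Efna2 9.85, 10.31 and 11.01 and 8.61, 9.15 and 10.23, with differences of -1.30 and -1.12. From E15.5 to P15 alone Ephb4 gave -2.24, Ephb3 -1.47, Efnb2 -2.54 and Efna4 -1.21.

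Efna5, a partner of Epha3, Epha4 and Epha5, moved against its receptors, from 7.57, 8.72 and 9.54 in fetal to 8.97, 9.71 and 10.35 in postnatal arrays, a difference of 1.06 (SE 0.15, adjusted p = 7.04e-08). The E15.5 arrays carried part of this: without E15.5 in the fetal class the difference was 0.62, and without E17.5 beta replicate 3 it was 0.99, both under the threshold of size. From E15.5 to P15 alone it was 1.36.

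In the Slit and Robo families Slit2, Slit3 and Robo4 fell and Robo2 rose. Slit2 ran 9.85, 11.61 and 12.31 in fetal and 6.02, 6.64 and 7.58 in postnatal arrays, a difference of -4.59 (SE 0.23, adjusted p = 1.15e-19), and from E15.5 to P15 alone -3.73. Slit3 ran 6.19, 7.96 and 9.81 and 5.13, 5.83 and 6.01, a difference of -2.28, against -0.63 from E15.5 to P15. Robo2 ran 6.32, 7.32 and 8.12 in fetal and 8.44, 9.46 and 9.96 in postnatal arrays, a difference of 2.09 (SE 0.33, adjusted p = 7.52e-07), and every postnatal array was above every fetal one. From E15.5 to P15 alone Robo2 rose by 2.04. Robo1, at 11.94 ± 0.14 in E15.5 and 10.01 ± 0.34 in 8-12 wk beta cells, was not called between the classes. Robo4 ran 4.83, 9.64 and 11.01 in fetal and 4.23, 5.13 and 6.18 in postnatal arrays, a difference of -3.65 (SE 0.27, adjusted p = 1.21e-14). Robo4 gave -0.31 with adjusted p = 0.565 from E15.5 to P15 alone. That comparison leaves out the E17.5, P0 and 8-12 wk arrays. Stage and endothelial content change together across these arrays and cannot be told apart. Ntn1 ran 5.31, 6.04 and 7.27 in fetal and 4.52, 5.17 and 5.50 in postnatal arrays, a difference of -1.11, and the Unc5 receptors were not called.

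**Figure D5:**
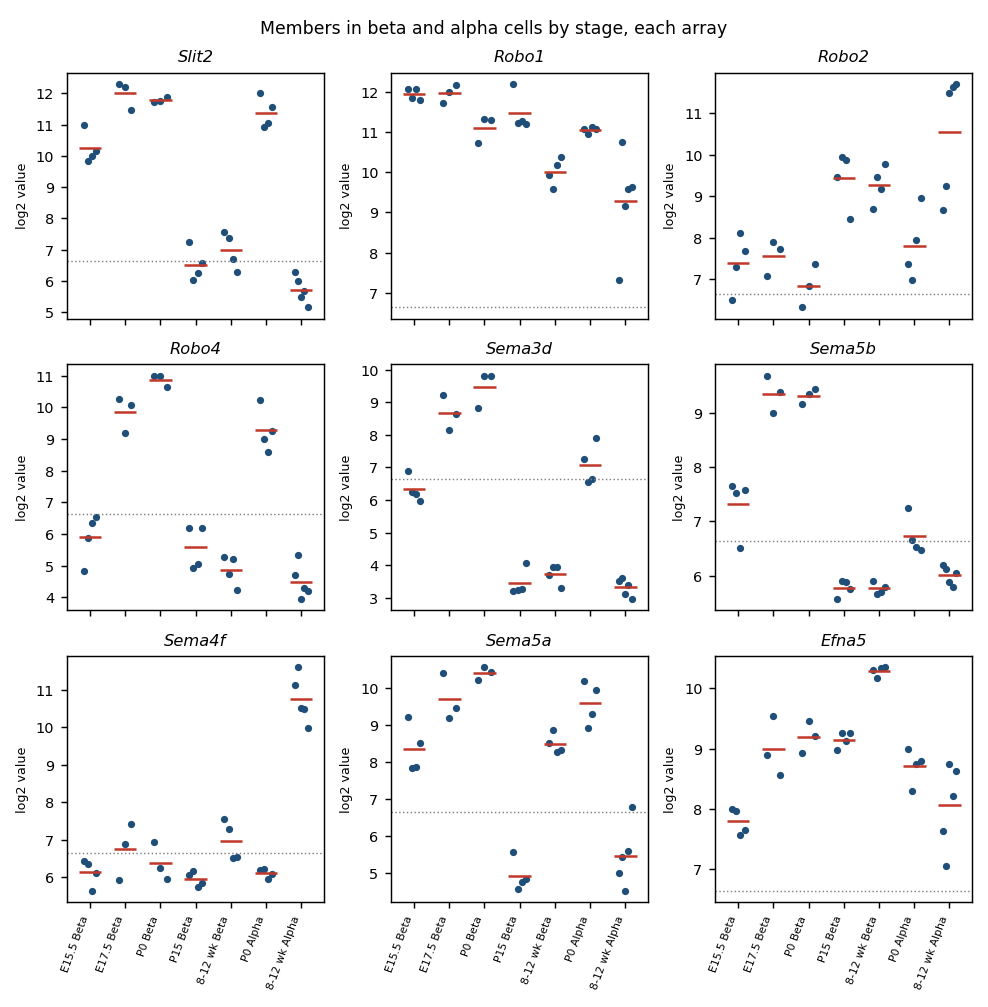
Log2 value in each array (dots) and population mean (red line) of Slit2, Robo1, Robo2, Robo4, Sema3d, Sema5b, Sema4f, Sema5a and Efna5 in the 5 beta and 2 alpha populations, with the level of 100 on the linear scale as a dotted line. Slit2 and Sema3d are low in all P15 and 8-12 wk arrays, Robo2 is higher there, and Sema4f is high in the 5 arrays of 8-12 wk alpha cells (9.97 to 11.60).

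Alpha cells of P0 and 8-12 wk share no array with the beta cells. Between them 4 members were higher at 8-12 wk and 21 lower, where 6.87% of all genes tested were called higher and 15.7% lower. The median difference was -0.49 over the tested members and -0.03 over all genes, and 23 of the 25 called members had no overlap between P0 and 8-12 wk arrays, where 20.2% of all genes tested, or 89.5% of those called, were called without overlap. Without 8-12 wk replicates 1 and 2, which stood apart in acinar markers, 3 members were higher and 22 lower. Under a filter of at least 3 arrays above 100, 3 were higher and 20 lower. Slit2 fell from 11.39 ± 0.50 (SD, n = 4) to 5.72 ± 0.44 (n = 5), a difference of -5.66 (SE 0.32, adjusted p = 2.19e-17) or 50.6-fold. Robo4 fell by 4.78 (SE 0.38, adjusted p = 1.88e-13), Sema3c fell by 4.65 (SE 0.32, adjusted p = 2.52e-15), Epha4 fell by 4.63 (SE 0.34, adjusted p = 2.72e-14), Epha3 fell by 4.33 (SE 0.54, adjusted p = 1.28e-08) and Sema5a fell by 4.11 (SE 0.30, adjusted p = 2.51e-14). Nrp1 and Nrp2 fell as well, with differences of -3.33 and -2.61, as did Ephb4, with -3.48. Of the markers of other cells, 11 of 12 endothelial, 11 of 12 mesenchymal and 11 of 17 macrophage markers were lower at 8-12 wk. So were 6 of 7 duct (list means 9.87 and 7.35), 4 of 6 beta and 3 of 5 Schwann cell and neural crest markers. The same held for 2 of 9 acinar and 2 of 5 endocrine progenitor markers. The part of these cells in the decreases was not tested.

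The 4 members called higher in mature alpha cells were Sema4f, Robo2, Robo3 and Sema3e. Sema4f, a membrane-spanning class 4 semaphorin, measured 6.19, 6.22, 5.95 and 6.08 at P0 and 11.12, 11.60, 10.51, 10.49 and 9.97 at 8-12 wk, a difference of 4.63 (SE 0.28, adjusted p = 1.11e-16) or 24.8-fold. Robo2 measured 7.36, 6.97, 7.95 and 8.95 at P0 and 8.68, 9.25, 11.49, 11.64 and 11.71 at 8-12 wk, a difference of 2.75 (SE 0.46, adjusted p = 4.3e-06) in which the arrays overlapped. Its low arrays at 8-12 wk, 8.68 and 9.25, were replicates 1 and 2, and without them the difference was 3.81 (adjusted p = 2.59e-10). Robo3, known for axons that cross the midline, stayed at or near the floor, from 4.84 ± 0.19 to 6.08 ± 0.74, a difference of 1.24 (SE 0.25, adjusted p = 7.08e-05). Robo3 exceeded 100 in 8-12 wk replicate 1 alone, so without that array it was not tested. It entered the test only through the group where it read high, and its call is no support. Sema3e rose by 1.19 (SE 0.28, adjusted p = 0.00058). Robo2 was thus called higher in both lineages, and 17 members were called lower in both, 63% of the 27 lower in beta cells and 81% of the 21 lower in alpha cells. Over all genes tested these shares were 61.5% and 57.7%.

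Whether beta and alpha cells changed by different amounts from P0 to 8-12 wk was tested directly as the difference of the 2 changes. For 6 members it was positive, the beta cells gaining more or losing less, and for 11 negative, where 11.8% of all genes tested were called positive and 11.6% negative. Robo3 (-1.21) was among the negative calls. It entered the test only through 8-12 wk alpha replicate 1, where it read high, so its call is no support. The median was -0.29 over the tested members and -0.07 over all genes. Sema4f gave -4.04 (SE 0.42, adjusted p = 2.02e-09), and beta cells went from 6.37 ± 0.51 to 6.97 ± 0.52. Slit3, -2.99 (SE 0.38, adjusted p = 9.13e-08), Sema5b, -2.83 (SE 0.27, adjusted p = 1.95e-10), Sema3d, -1.99 (SE 0.46, adjusted p = 0.000805), and Efna1, -1.81 (SE 0.24, adjusted p = 2.49e-07), fell further in beta cells, from higher levels at P0. Slit3 and Sema5b were already near the floor in P0 alpha cells, at 6.43 and 6.73. At 8-12 wk Slit3, Sema5b and Sema3d had means under it in both lineages. A further fall in alpha cells could thus not be read for Slit3 and Sema5b, whose values cannot be told from the difference at P0. The size for Sema3d is not exact. Sema6d, -1.81 (SE 0.43, adjusted p = 0.00116), fell in beta cells from 11.32 ± 0.16 to 8.78 ± 0.19, while its alpha means were 11.22 ± 0.12 and 10.50 ± 0.62. The calls with a positive difference were Sema5a, 2.20 (SE 0.46, adjusted p = 0.000244), Sema4a, 1.93 (SE 0.36, adjusted p = 6.63e-05), Efna5, 1.74 (SE 0.31, adjusted p = 3.41e-05), Sema3c, 1.61 (SE 0.48, adjusted p = 0.00797), Sema6a, 1.34 (SE 0.41, adjusted p = 0.0105), and Sema4d, 1.29 (SE 0.21, adjusted p = 1.12e-05).

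Macrophage markers moved with the positive group, 16 of 17 being called in that direction, as did 5 of 7 duct markers, and 6 of 12 endothelial and 5 of 12 mesenchymal markers were called negative. The part of these cells was not tested. The macrophage and duct lists were lower in P15 than in 8-12 wk beta cells (list means 7.61 and 11.34, and 8.70 and 10.33). With P15 beta cells in place of those of 8-12 wk, an alternative chosen after seeing the data, age differs between the lineages too. Sema5a then gave -1.35 (adjusted p = 0.0204), Sema6a -0.74, Efna5 0.60 and Sema3c 0.62. The negative values held their direction for the 6 named genes, with Sema4f at -5.06, Slit3 at -3.09, Sema5b at -2.82 and Sema6d at -0.94, the last no longer called. Of the 6 positive calls 4 were lost with the mean of all probes of a gene, where Sema6a turned to -0.16, Sema3c gave 0.17 (adjusted p = 0.741), Sema4d 0.29 (adjusted p = 0.0625) and Sema5a 0.89, under the threshold of size. Sema6a also missed the threshold when only the arrays compared were fitted (adjusted p = 0.0582) and with array weights (0.86).

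Adult beta cells, compared with adult alpha cells of the same age, had 12 members higher and 7 lower, where 12% of all genes tested were called higher and 5.61% lower. The median difference was 0.16 over the tested members and -0.01 over all genes. Higher in alpha cells were Sema4f, at 10.74 ± 0.63 in alpha (SD, n = 5) and 6.97 ± 0.52 in beta cells (n = 4), a difference of -3.77 (SE 0.28, adjusted p = 3.93e-14) or 13.7-fold, Ntn4, -2.19 (SE 0.19, adjusted p = 3.9e-12), Sema6d, -1.72 (SE 0.29, adjusted p = 4.96e-06), Robo3, -1.43 (SE 0.25, adjusted p = 1.05e-05), and Sema3e, -1.22 (SE 0.28, adjusted p = 0.00059). For Robo3 both means, 6.08 in alpha and 4.65 in beta cells, were under the floor. It exceeded 100 in alpha replicate 1 alone, so it entered the test only through the group where it read high, and its call is no support. Robo2 was also lower in beta cells, -1.28 (SE 0.46, adjusted p = 0.0222), but 2 of the alpha arrays (8.68 and 9.25) lay in the range of the beta arrays. These were replicates 1 and 2, which stood apart in acinar markers, and without both the difference was -2.34 (adjusted p = 5.93e-06). Without alpha replicate 5 the Robo2 difference was -0.99 with adjusted p = 0.0848, and when only the arrays compared were fitted adjusted p was 0.176.

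Higher in adult beta cells were Sema5a, at 5.47 ± 0.85 in alpha and 8.49 ± 0.27 in beta cells, a difference of 3.02 (SE 0.30, adjusted p = 1.01e-10), Efna5, 2.24 (SE 0.21, adjusted p = 1.22e-11), Plxnd1, 1.90 (SE 0.27, adjusted p = 3.31e-07), Plxnc1, 1.86 (SE 0.35, adjusted p = 3.56e-05), Sema3c, 1.81 (SE 0.32, adjusted p = 1.07e-05), and Ephb4, 1.54 (SE 0.31, adjusted p = 8.12e-05). For Ephb4 both means, 4.28 in alpha and 5.82 in beta cells, were under the floor. Macrophage markers moved with this side: the list averaged 5.81 in adult alpha and 11.34 in adult beta cells and 16 of 17 of its markers were called higher. So were 7 of 9 acinar (list means 9.18 and 11.93) and 5 of 7 duct markers (7.35 and 10.33), and the part of these cells was not tested. In P15 beta cells the macrophage list averaged 7.61, the acinar list 10.80 and the duct list 8.70, with replicate 1 above the other arrays in each. These cells replaced the adult ones in an alternative again chosen after seeing the data, in which age differs from that of the alpha cells. There only 1 of the 12 members higher in adult beta cells, Efna5 at 1.09, was called higher. Sema5a gave -0.53 (adjusted p = 0.157), Plxnc1 -0.35, Plxnd1 0.09 and Nrp1 -1.34, the last called lower. Of the 7 members higher in alpha cells, 6 were also called against P15 beta cells, Sema4f at -4.79 and Ntn4 at -2.18 among them. Robo3, whose call is no support, is counted in both.

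Signalling partners outside the families were read from a list of 54 genes that hold other guidance cues and receptors, the collapsin response mediators and the small GTPase regulators of growth cones. Of these 52 were tested. From E15.5 progenitors to endocrine progenitors 9 were higher and 10 lower, beside 10.7% and 11.8% of all genes tested. Flrt1 was at 3.88, Dpysl5, a collapsin response mediator, at 3.69 and the p21-activated kinase Pak3 at 3.28. Against Neurog3-null cells 13 were higher and 13 lower (all genes: 14.2% and 18.7%), with Dpysl4 at 4.68 and Dpysl5 at 4.41. From endocrine progenitors to E15.5 beta cells 3 were higher and 4 lower (all genes: 6.69% and 4.57%), with Dpysl4 at -3.16. Fetal to postnatal beta cells gave 1 higher and 11 lower (all genes: 6.37% and 14.8%), led by Flrt2 at -4.99 and the chemokine Cxcl12 at -4.96. P0 to 8-12 wk alpha cells gave 2 higher and 12 lower (all genes: 6.87% and 15.7%), led by Dpysl3 at -6.33 and Flrt2 at -5.74. Adult beta against alpha cells gave 9 higher and 5 lower (all genes: 12% and 5.61%), with Dpysl3 at 4.04. Duct cells against progenitors gave 10 higher and 8 lower (all genes: 15.1% and 19.6%). Among these were the GTPase Rnd1 at 7.25 and the semaphorin co-receptor L1cam at 2.44. Acinar cells gave 2 higher and 7 lower (all genes: 4.63% and 7.06%). E15.5 progenitors against E11.5 cells gave 4 higher and 10 lower (all genes: 6.25% and 7.3%). The difference of the maturations gave 13 positive and 6 negative (all genes: 11.8% and 11.6%).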

How the data were processed

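RNA of 48 sorted cell samples was isolated with the PicoPure kit, amplified and biotin-labelled with a NuGEN kit and hybridised to Affymetrix mouse genome arrays, 1 sample per array. The authors deposited log2 values of 45101 probes, summarised with RMA in R 2.11.1 per the labels. RMA corrects background, forces all arrays to 1 distribution by quantiles and so removes shifts shared by most genes. Which arrays entered that step together is not given in the sources used here. Arrays carry no read depth, and the number of arrays per population limits the precision. Of all pairs of arrays, 0 held identical values.

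Probes were named through the platform's annotation (34958 with 1 gene symbol, 932 with several and 9211 with none), and all 70 members were found in RefSeq by gene identifier. Ephb2 had no probe of its own in this annotation and was not analysed here. Members and lists were chosen with earlier results of these data known. The populations were compared with limma 3.58.1 in R 4.3.3, with 1 mean per population, moderated variances over all 48 arrays and no covariate, since no batch is given. The 32078 probes above 100 (linear) in at least 1 array were tested, with Benjamini-Hochberg adjustment over them, and calls needed adjusted p under 0.05 and a log2 difference of at least 1. The fetal and postnatal beta classes gave each stage equal weight. The study's own pairwise test was tried as an alternative, called the methods' t-test. In each comparison up to 6 called members per direction, by size, have full statistics, and values of every array or their range are given for members called in the comparison that opens each set, for their partners and for Epha2. Of the partner list, up to 3 genes per direction were named by size. The procedure was tested on simulated data.

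Replicate numbers in the labels recur across populations. Deviations of same-numbered arrays correlated at 0.106 to 0.148 in all 3 pairs of E11.5 and E15.5 progenitors. These populations came from different stages and reporter lines, so the values do not show paired animals, and the main fit used no pairing. In no other comparison did every pair exceed 0.1 (-0.282 to 0.302), the highest lying between E15.5 progenitors and endocrine progenitors. Alternatives were no filter, a stricter filter, array weights, renewed quantile normalisation, only the arrays compared, all probes of a gene averaged, no fold threshold, a replicate block, other beta populations, 2 adult alpha arrays left out and leaving out each array.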

Additional observations from a re-analysis of the deposited data

Results flagged for a closer look

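Among 496 sets of a member and a population with 4 or 5 arrays, 36 (7.26%) held an array farther from the rest than Dixon's 95% value allows, where chance gives about 1 in 20. In 8 of them the population's range was at least 1 log2 unit. Efnb2 read 4.63 in 8-12 wk alpha replicate 2, with the next array at 6.81. Replicate 1 of the 8-12 wk alpha cells was the highest of its population for Sema3a (6.64), Sema3c (6.02) and Sema4g (10.81). Plxnd1 was 9.37 in duct replicate 1. Robo1 was 6.87 in Neurog3-null replicate 2, Sema4g 8.60 in 8-12 wk beta replicate 4, and Sema5b 6.51 in E15.5 beta replicate 3.

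The change from P0 to 8-12 wk differed between beta and alpha cells, by the test of the difference itself, for 12 members named above. It was more positive in beta cells for Sema5a (2.20), Sema4a (1.93), Efna5 (1.74), Sema3c (1.61), Sema6a (1.34) and Sema4d (1.29). It was more negative in beta cells for Sema4f (-4.04), Slit3 (-2.99), Sema5b (-2.83), Sema3d (-1.99), Efna1 (-1.81) and Sema6d (-1.81). Slit3 and Sema5b were near the floor in P0 alpha cells, where a further fall could not be read. With the mean of all probes of a gene, the calls of Sema5a, Sema3c, Sema6a and Sema4d were lost. With P15 in place of 8-12 wk beta cells, Sema5a and Sema6a turned negative and the calls of Efna5, Sema3c and Sema6d were lost.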

How the results depend on the processing

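Over the 10 comparisons, 182 of 188 alternative counts of called members were within 1.5 times the count reported, and 6 were not. Averaging all probes of a gene gave 14 members in place of 25 from E11.5 Sox9 cells to E15.5 progenitors and 16 in place of 25 in alpha cell maturation. Without the fold threshold there were 47 in place of 30 from fetal to postnatal beta cells, 45 in place of 25 in alpha cell maturation and 30 in place of 19 between adult alpha and beta cells. With P15 in place of 8-12 wk beta cells, 31 in place of 17 members differed between the maturations. Of 1205 alternative values for single named members, 1160 kept direction and call, 40 lost the call and 5 turned: with P15 beta cells, Sema5a (-0.53) and Plxnc1 (-0.35) against adult alpha cells and Sema5a (-1.35) and Sema6a (-0.74) in the difference of maturations, and Sema6a (-0.16) there with all probes averaged. The cause was not tested.

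With the replicate block the counts were 22, 22, 26, 30, 16, 29, 28, 17, 24 and 19, in the order E11.5 to E15.5 progenitors, acinar cells, endocrine progenitors against E15.5 progenitors and against Neurog3-null cells, E15.5 beta cells, postnatal beta cells, mature alpha cells, adult beta against alpha cells, duct cells and the difference of maturations. None of these moved by over 1.5 times, and of the named calls Robo2 between adult alpha and beta cells was lost under the block (-0.99). Leaving out 1 array gave 21 to 23 members from E11.5 to E15.5 and 27 to 33 from fetal to postnatal beta cells. Another probe of the gene was tested for 134 of 236 calls and was called the same way in 90 and the opposite way in 3, all 3 in the difference of maturations.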

Other observations

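The steps from E11.5 Sox9 cells to E15.5 progenitors and from endocrine progenitors to E15.5 beta cells share no arrays, and 8 members were called in both with opposite signs, 32% of the 25 called in the first step and 47.1% of the 17 in the second. Over all genes tested these shares were 21.6% and 26%. Endocrine markers moved with the first step, the alpha list averaging 10.68 in E11.5 cells and 5.85 in E15.5 progenitors and the beta list 10.85 and 8.96, and their part was not tested. Sema6d, Unc5c, Slit2 and Sema3d were lower in E15.5 progenitors than in E11.5 cells and higher in E15.5 beta cells than in endocrine progenitors. Ntn4, Sema3g, Sema3e and Unc5cl went the other way in each step. The Sema3e means lay under the floor on both sides of the first step (4.13 and 5.18) and of the second (6.30 and 5.18). In the second step the means of Unc5cl (5.90 and 4.68) and Sema3d (4.72 and 6.33) were under it too. These are descriptions of 2 comparisons and no test was made of their relation.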
